A study of Rattus norvegicus with 12 samples.

Results

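Cdh1, Cdh2 and Snai2 are 3 of the 17941 genes counted in 12 cultures of adult rat astrocytes (ASTRs). They are the genes of the cadherin switch and 1 repressor of Cdh1. They were chosen because their counts differed between astrocytes of the cerebral cortex (gmASTRs) and astrocytes of the other brain regions (wmASTRs). That difference is therefore described here without a test. All 3 genes are also among the 9394 genes that passed the authors' filter on low counts. Their identifiers in the count tables are ENSRNOG00000020151 for Cdh1, ENSRNOG00000015602 for Cdh2 and ENSRNOG00000047699 for Snai2.

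Cadherins are calcium-dependent proteins that hold neighbouring cells together by binding the same cadherin on the next cell. Cdh1 encodes E-cadherin, the cadherin of epithelia and, in the brain coverings, of the arachnoid barrier. Cdh2 encodes N-cadherin, the cadherin of neural and many mesenchymal cells, astrocytes included. In a cadherin switch a cell replaces E-cadherin with N-cadherin, as happens in the epithelial-mesenchymal transition (EMT). Snai2 encodes Slug, a zinc finger repressor that binds E-box motifs of the Cdh1 promoter and is known as a driver of that transition.

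The cultures came from young adult female Wistar rats, and no culture was treated. For gmASTRs the cortices were freed of meninges. For wmASTRs what remained of the brain was used after the amygdala had been taken out, that is white matter tracts, hippocampus, thalamus and basal ganglia, so that wmASTRs include astrocytes of deep grey matter. Each animal gave both kinds of culture, the cells were grown for 20 days and split at least once with trypsin, and 6 separate preparations of each kind were sequenced with a 3′ mRNA kit.

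A 3′ kit gives about 1 read per transcript end, whatever the transcript's length. On that ground levels of different genes in a library are set beside each other below. How evenly the transcript ends of these genes are annotated, mapped and amplified was not tested. Levels are given as CPM, the count of a gene scaled to the library total. The gmASTR libraries held 4920488 to 6356487 counts and the wmASTR libraries 5363330 to 7207118, and 3 counts, taken as the floor, were worth 0.416 to 0.610 CPM. Intervals below are exact 95% binomial intervals and cover counting error only. In these bulk cultures fewer cells with a transcript and less transcript per cell cannot be told apart. Of the astrocyte markers with a name, Gja1 was high in both groups, with 4789 ± 627 CPM in gmASTRs against 4366 ± 1241 CPM in wmASTRs (SD, n = 6 each). Gfap had 0 counts in every gmASTR library, which allows up to 0.610 CPM, and 8 to 60 counts in wmASTR libraries. By western blot the paper found GFAP protein in both kinds of culture, and more of it in wmASTRs. Aqp4 had at most 4 counts in a gmASTR library and 13 to 31 counts in wmASTR libraries. Slc1a3 too had its higher mean in wmASTRs, 21.3 ± 8.46 CPM against 8.21 ± 4.03 CPM (edgeR's quasi-likelihood test, FDR 0.0158). For Aldoc (20.8 against 12.7 CPM) and Fgfr3 (3.75 against 1.80 CPM) the gmASTR mean was the higher. Neither passed that test (FDR 0.167, and 0.517 in the table of all genes).

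Cdh1 was an abundant transcript in gmASTRs and a scarce one in most wmASTRs, Cdh2 was found mainly in wmASTRs, and the mean of Snai2, like that of Cdh1, was higher in gmASTRs. Cdh1 levels were 87.3, 1024 and 1315 CPM (lowest, median and highest) in gmASTRs and 0.831, 7.76 and 114 CPM in wmASTRs. Of the gmASTR cultures 5 lay between 811 and 1315 CPM, and gmASTR 5 stood far below them. Of the wmASTR cultures wmASTR 3 was highest, the next being wmASTR 5 with 26.0 CPM. The groups overlapped through this pair alone, since wmASTR 3 (interval 106 to 122 CPM) was above gmASTR 5 (interval 79.6 to 95.7 CPM). The means were 886 ± 423 CPM in gmASTRs and 26.2 ± 43.8 CPM in wmASTRs (SD, n = 6 each), with a fitted log2 fold change of 5.01 (SE 0.85) of gmASTRs over wmASTRs. Without gmASTR 5 the gmASTR mean was 1046 ± 180 CPM, and without wmASTR 3 the wmASTR mean was 8.72 ± 10.4 CPM (SD, n = 5 each).

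Within the order of Cdh1 levels, gmASTR 1 (1013 CPM), gmASTR 2 (1036 CPM) and gmASTR 3 (1056 CPM) could not be ranked, as their intervals overlapped. The same held at the low end for wmASTR 2 with 5 counts and wmASTR 4 with 7 counts, where the intervals were 0.270 to 1.94 and 0.495 to 2.54 CPM. Between those ends wmASTR 6 (4.85 CPM), wmASTR 1 (10.7 CPM) and wmASTR 5 (26.0 CPM) had intervals that did not overlap each other. Cdh1 covered a 137-fold range among wmASTR cultures, with the lowest at 5 counts, and a 15.1-fold range among gmASTR cultures. These ranges were 31.3-fold without wmASTR 3 and 1.62-fold without gmASTR 5.

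Cdh2 levels were 0, 2.74 and 8.34 CPM (lowest, median and highest) in gmASTRs and 13.5, 31.0 and 106 CPM in wmASTRs. The groups did not overlap. The gmASTR culture with most Cdh2 was again gmASTR 5, with 44 counts, and the wmASTR culture with least was again wmASTR 3, with 97 counts. No count was found in gmASTR 4, where the floor of 3 counts was 0.580 CPM and the two-sided exact binomial interval reaches 0.713 CPM. Among wmASTRs, wmASTR 4 (106 CPM) and wmASTR 6 (64.1 CPM) stood above wmASTR 1, wmASTR 2 and wmASTR 5, whose levels of 30.3 to 31.5 CPM could not be ranked. The means were 2.93 ± 2.97 CPM and 46.0 ± 33.7 CPM (SD, n = 6 each), with a fitted log2 fold change of -4.03 (SE 0.62).

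Snai2 levels were 68.0, 128 and 245 CPM in gmASTRs and 20.8, 25.2 and 47.3 CPM in wmASTRs, again without overlap. The lowest gmASTR culture was gmASTR 5 and the highest wmASTR culture was wmASTR 3, so the same pair of cultures lay nearest to the other group for all 3 genes. The highest Snai2 level was that of gmASTR 4, the culture with no Cdh2 count. The means were 132 ± 62.4 CPM and 29.8 ± 10.5 CPM (SD, n = 6 each), with a fitted log2 fold change of 2.08 (SE 0.26). Snai2, known as a repressor of Cdh1, was thus the gene whose groups lay on the same side as Cdh1.

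**Figure D1:**
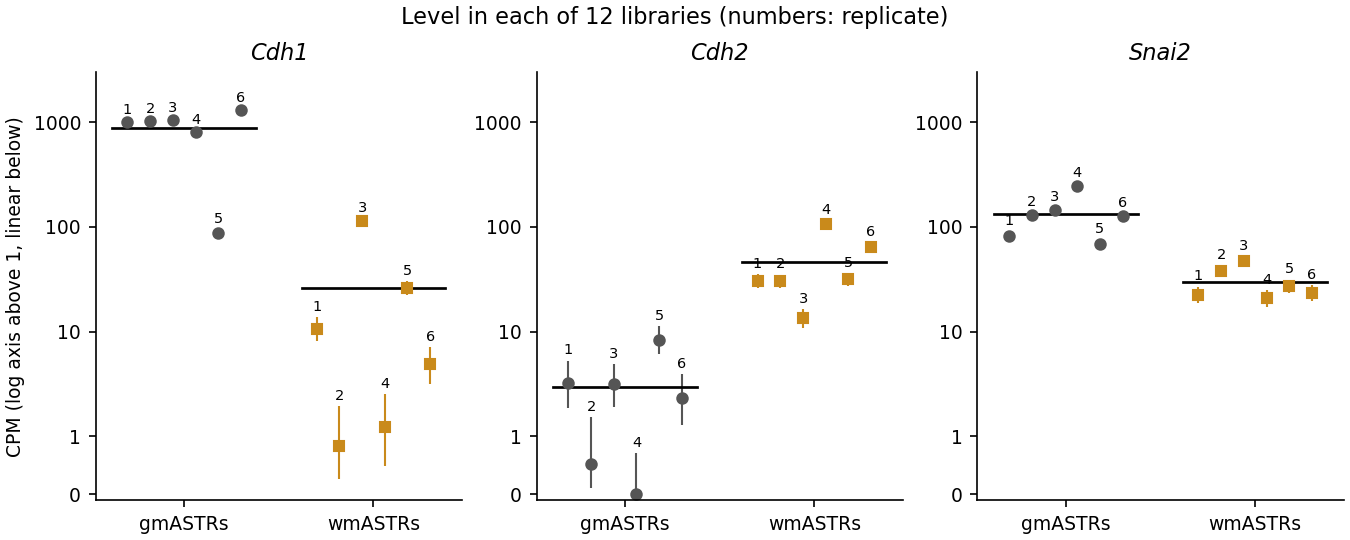
CPM of Cdh1, Cdh2 and Snai2 in each of 6 gmASTR (circles) and 6 wmASTR (squares) libraries, numbered by replicate, on an axis that is logarithmic above 1 CPM and linear below. Bars through points are exact 95% binomial intervals and horizontal lines are group means. For Cdh1, gmASTR 5 (87.3 CPM) lies below wmASTR 3 (114 CPM), while the groups of Cdh2 and Snai2 do not overlap.

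For scale, the fitted fold change of Cdh1 ranked 2 among 9394 genes from the gmASTR side, that of Cdh2 ranked 1 from the wmASTR side, and that of Snai2 ranked 42 from the gmASTR side. Groups did not overlap for 5.76% of all filtered genes, 2.69% with gmASTRs higher and 3.07% with wmASTRs higher. These places hold among the filtered genes alone, follow from the choice of the 3 genes and carry no further weight. Of genes outside the filtered table, Gfap (-7.32) and Ttr (-6.41) had larger log2 fold changes on the wmASTR side than Cdh2. Those values come from a fit of all 15478 genes with a count.

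The balance of both cadherins differed between cultures by more than counting error. Reads of Cdh1 made up 99.7% to 100% of the reads of Cdh1 and Cdh2 together in 5 gmASTR cultures and 91.3% (exact interval 88.5% to 93.6%) in gmASTR 5. Among wmASTRs the share was 1.15% in wmASTR 4, 2.67% in wmASTR 2 and 7.03% in wmASTR 6. It rose to 25.9% (20.3% to 32.1%) in wmASTR 1 and to 45.2% (40.3% to 50.3%) in wmASTR 5, where both cadherins were at about equal level. In wmASTR 3 it was 89.4% (87.2% to 91.3%), so 1 of 6 wmASTR cultures held more Cdh1 than Cdh2, and its interval overlapped that of gmASTR 5.

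On the log2(CPM + 1) scale the difference of Cdh1 and Cdh2 was 7.81 ± 2.35 in gmASTRs, from 3.24 to 9.67, and -1.98 ± 3.09 in wmASTRs, from -5.58 to 2.99 (SD, n = 6 each). The highest wmASTR value therefore lay just below the lowest gmASTR value. The summed level of both cadherins was 95.7 to 1318 CPM in gmASTRs and 31.1 to 127 CPM in wmASTRs. In other words, a wmASTR culture held fewer transcripts of this pair than any gmASTR culture except gmASTR 5.

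Set against Snai2, Cdh1 was the more abundant transcript in all 6 gmASTR cultures and in wmASTR 3 alone among wmASTRs. The log2 difference of Cdh1 and Snai2 ran from 0.36 in gmASTR 5 to 3.61 in gmASTR 1, and from -4.40 in wmASTR 2 to 1.25 in wmASTR 3. Cdh2 was below Snai2 in every gmASTR culture, by 2.89 or more on the log2 scale, with values down to -7.94. Among wmASTRs that difference ran from -1.74 in wmASTR 3 to 2.30 in wmASTR 4, and Cdh2 was the higher of the pair in 4 of 6 cultures.

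**Figure D2:**
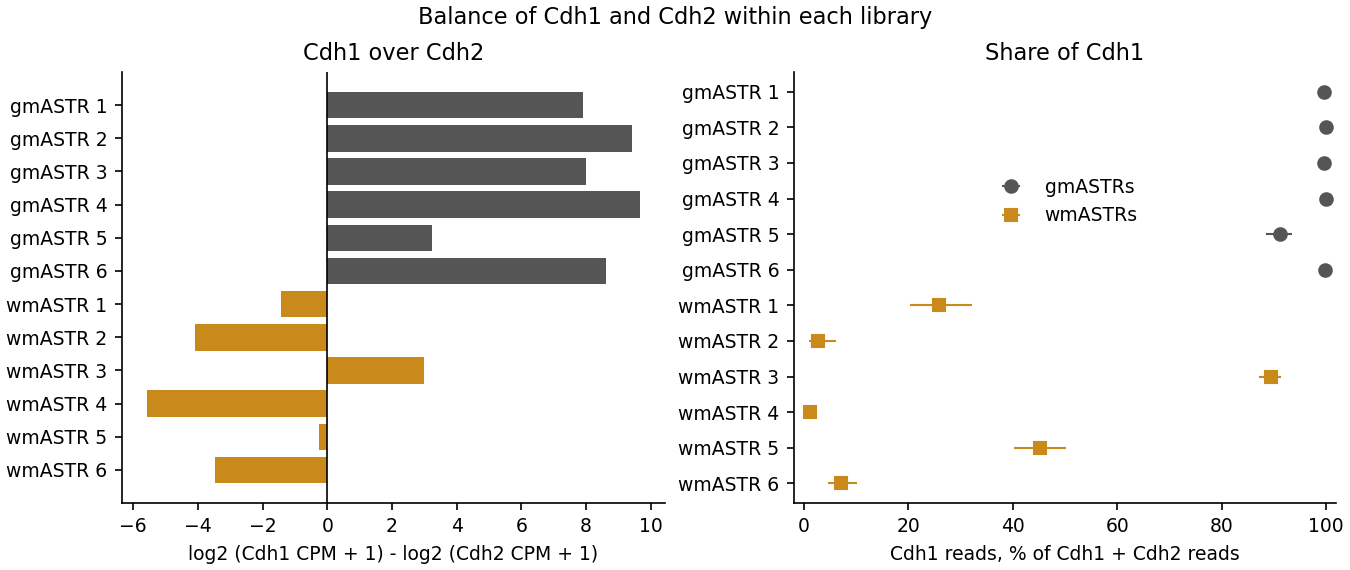
Left, difference of log2(CPM + 1) of Cdh1 and Cdh2 in each library, with positive bars for more Cdh1. Right, share of Cdh1 reads among the reads of both genes in percent, with exact 95% binomial intervals. wmASTR 3 (89.4%) is the wmASTR library nearest to the gmASTRs, the lowest of which is gmASTR 5 (91.3%).

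The spread between cultures of a group was wide for these genes. The SD of log2(CPM + 1) of Cdh1 was 1.47 in gmASTRs, larger than that of all 151 genes whose mean level was within 1.5 times its own (median 0.21). That spread came from gmASTR 5, since without it the SD was 0.25, larger than in 75.4% of 118 genes of like level (median 0.18). In wmASTRs the SD of Cdh1 was 2.27, larger than that of all 1990 genes of like level (median 0.35), and without wmASTR 3 it was 1.63, larger than in 99.8% of 1675 genes. For Cdh2 in wmASTRs it was 1.00, larger than in 99.6% of 1779 genes. In gmASTRs, where Cdh2 rests on 0 to 44 counts, it was 1.15, larger than in 90.6% of 785 genes.

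The SD of Snai2 was 0.65 in gmASTRs, larger than in 96.0% of 1076 genes of like level, and 0.46 in wmASTRs, larger than in 81.3% of 1975 genes. Without gmASTR 5 the former was 0.56, larger than in 97.8% of 1019 genes and above the 0.25 of Cdh1 in the same 5 cultures. Without wmASTR 3 the latter was 0.33, larger than in 42.4% of 1970 genes. The coefficient of variation on the CPM scale was 35.3% for Snai2 in wmASTRs, 73.3% for Cdh2 and 167% for Cdh1. In gmASTRs it was 47.2% for Snai2, 101% for Cdh2 and 47.7% for Cdh1.

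**Figure D3:**
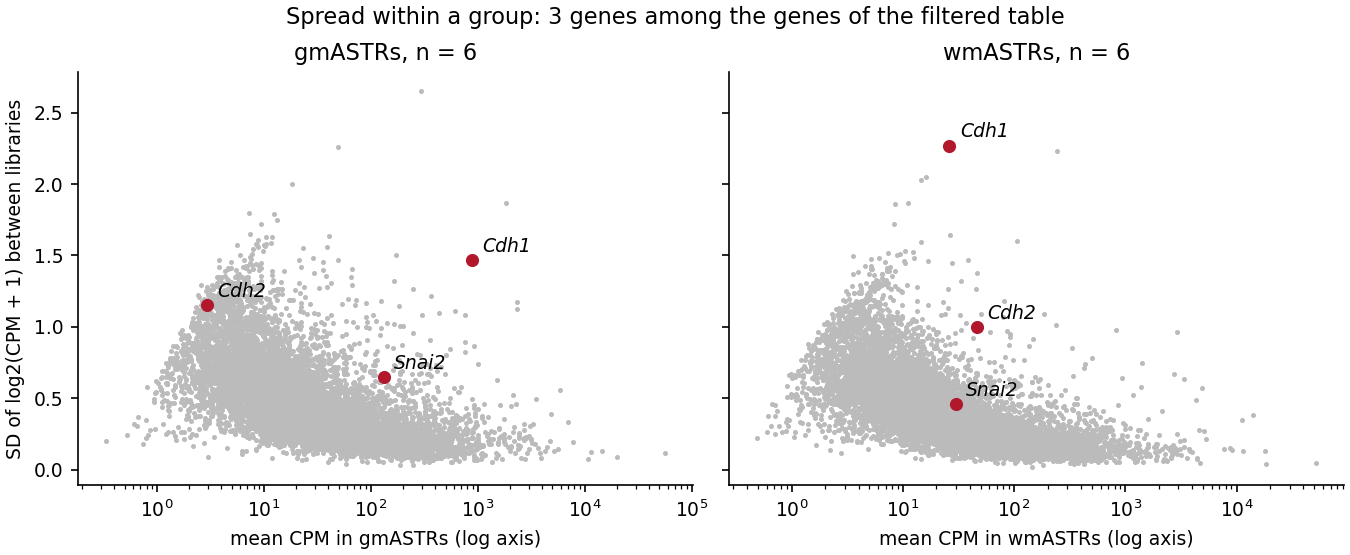
SD of log2(CPM + 1) between 6 libraries against the mean CPM on a log axis, for the genes of the filtered table (grey) and the 3 genes (red), in gmASTRs (left) and wmASTRs (right). Cdh1 stands above genes of like level in both groups (SD 1.47 and 2.27, or 0.25 without gmASTR 5 and 1.63 without wmASTR 3), while Snai2 in wmASTRs (0.46) lies within the cloud.

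Covariation was examined within each group, since the groups form separate clusters and a pooled coefficient would restate their difference. All 6 relations were computed on the log2(CPM + 1) scale, each over 6 cultures with a two-sided exact permutation test, whose smallest p is 0.00139, and p-values were adjusted over the 6 relations. Cdh2 and Snai2 moved in opposite directions in gmASTRs (r = -0.86, exact permutation p = 0.0306, adjusted p = 0.138) and in wmASTRs (r = -0.82, exact permutation p = 0.0458, adjusted p = 0.138). Neither passed the adjustment. Spearman's rho was -0.83 in both groups (exact permutation p = 0.0583, adjusted p = 0.175). Without the pair of cultures farthest from the median of Cdh2, r was -0.32 in gmASTRs (gmASTR 4 and gmASTR 5 left out) and -0.44 in wmASTRs (wmASTR 3 and wmASTR 4 left out). With any single culture left out, r stayed between -0.92 and -0.71 in gmASTRs and between -0.94 and -0.63 in wmASTRs.

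No relation of Cdh1 passed the adjustment within a group. With Cdh2, r was -0.60 in gmASTRs (exact permutation p = 0.304, adjusted p = 0.318, rho -0.26 with exact permutation p = 0.658) and -0.74 in wmASTRs (exact permutation p = 0.0917, adjusted p = 0.183, rho -0.37 with exact permutation p = 0.497). With Snai2, r was 0.56 in gmASTRs (exact permutation p = 0.318, adjusted p = 0.318, rho 0.26 with exact permutation p = 0.658) and 0.49 in wmASTRs (exact permutation p = 0.304, adjusted p = 0.318, rho 0.37 with exact permutation p = 0.497). The adjusted p of each rho of Cdh1 was 0.658. In gmASTRs both signs came from gmASTR 5. Without it r was 0.65 for Cdh1 and Cdh2 and -0.55 for Cdh1 and Snai2, and without gmASTR 5 and gmASTR 6, the pair farthest from the median of Cdh1, r was 0.74 and -0.76. In wmASTRs the relation of Cdh1 and Snai2 was -0.23 without wmASTR 3. Without wmASTR 2 and wmASTR 3 the coefficients were -0.94 for Cdh1 and Cdh2 and 0.89 for Cdh1 and Snai2.

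After these values were seen, the 12 cultures were also joined with each group's mean subtracted, permuting within groups. Cdh2 and Snai2 then had r = -0.84 (exact permutation p = 0.00196, adjusted over 3 relations 0.00587), and r stayed between -0.88 and -0.77 when any single culture was left out. For Cdh1 and Cdh2, r was -0.66 (exact permutation p = 0.0242, adjusted p = 0.0363), with a range of -0.78 to -0.53. For Cdh1 and Snai2, r was 0.49 (exact permutation p = 0.101, adjusted p = 0.101), with a range of 0.29 to 0.68.

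**Figure D4:**
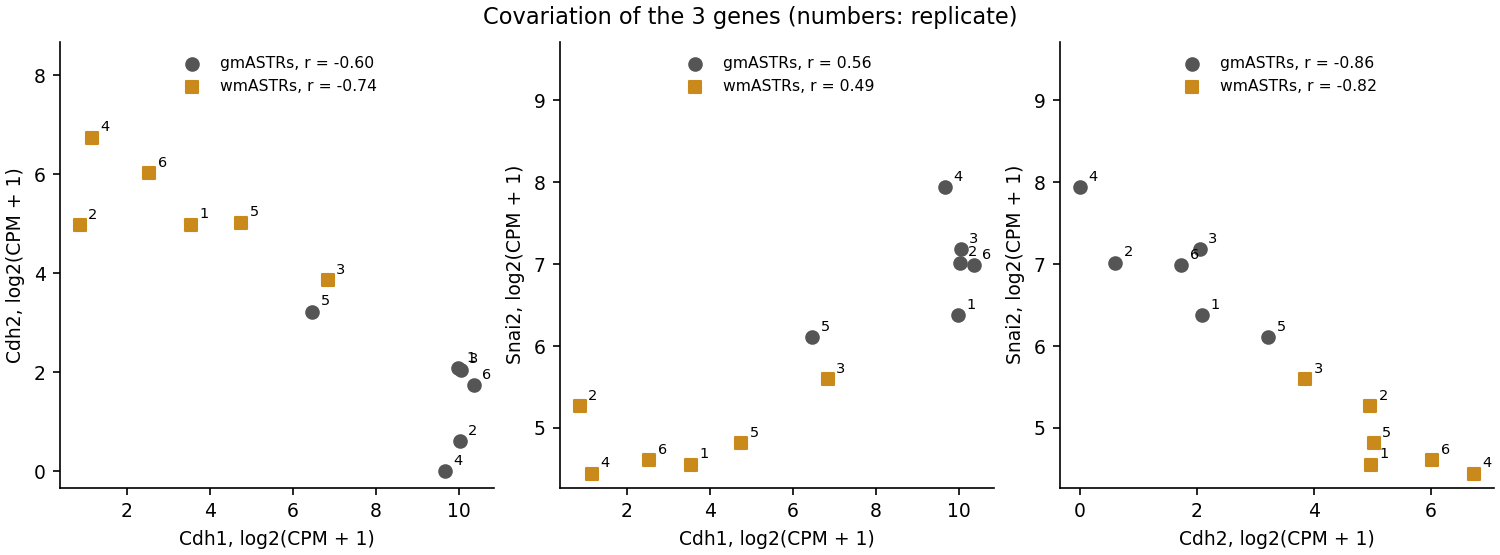
log2(CPM + 1) of each pair of the 3 genes in 6 gmASTR (circles) and 6 wmASTR (squares) libraries, numbered by replicate, with Pearson's r within each group. For Cdh2 and Snai2 both groups descend (r = -0.86 and -0.82), and gmASTR 5 and wmASTR 3 lie between the groups in every panel.

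The genes whose levels followed the 3 genes most closely over all 12 cultures were looked up among 5342 genes with a mean of at least 20 CPM, of which 719 have a name and can be named. These coefficients describe libraries that differ by region and carry no test. For Cdh1 they were Gclc (r = 0.97), Cldn11 (0.97), Tra2b (0.97), Echdc1 (0.96) and Sart3 (0.96), which were also the 5 highest among all 5341 other genes. Cldn11, which encodes a claudin of tight junctions, was at 112 CPM in gmASTR 5 against 690 CPM or more in the other gmASTRs and at 79.4 CPM in wmASTR 3, the highest of the wmASTRs. Cldn11 thus shared with Cdh1 the position of both cultures. With group means subtracted the named genes nearest to Cdh1 were Igfbp4 (r = 0.93), which encodes a binding protein of insulin-like growth factors, Tra2b (0.91) and Knstrn (0.89). Igfbp4 was at 21.4 CPM in gmASTR 5, below wmASTR 3 (57.4 CPM) and wmASTR 5 (64.3 CPM), so its groups overlapped too.

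For Cdh2 the named genes nearest to it included Itga1 (r = 0.95), which encodes a collagen-binding integrin subunit, Fstl3 (0.95), Ccl2 (0.93) and Mfge8 (0.93). With group means subtracted they were Fstl3 (0.81), Mfge8 (0.75) and Itga1 (0.75). For Snai2 they were Rpl22l1 (0.97), Olfml2a (0.97), Acss2 (0.96), Gjb2 (0.96) and Eif3f (0.96), and with group means subtracted Rpl22l1 (0.92), Tcp11l2 (0.91) and Snx24 (0.91). At the opposite end for Cdh2, Snai2 had the second lowest coefficient of 5341 genes (r = -0.97), after Foxd1, a forkhead transcription factor gene (-0.97). For Snai2 the lowest was that of Grem1, which encodes a secreted antagonist of bone morphogenetic proteins (-0.97), and Cdh2 had the sixth lowest. Cdh2 had the tenth lowest coefficient for Cdh1 (r = -0.92). Over 12 cultures, r was above 0.9 for 88 genes with Cdh1, 45 with Cdh2 and 107 with Snai2. With group means subtracted it was above 0.9 for 2, 0 and 5 genes, so most of these high values came from the difference between regions.

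Other genes of cadherin adhesion and of the transition were taken from 7 lists of 148 genes in all. Names were known for 29 of them, of which 23 were in the filtered table and tested between regions with edgeR's quasi-likelihood test (FDR over 9394 genes). With FDR under 0.05, 9 genes passed with the gmASTRs higher and 4 with the wmASTRs higher, and the median log2 fold change was 0.47 against 0.02 over all genes. Of all tested genes 5.64% passed on the gmASTR side and 6.69% on the wmASTR side, but among the 1593 genes with a name these shares were 28.8% and 6.97%. Names came mostly from a list of genes on the gmASTR side, 91.8% of named genes against 52.1% of all, so that the direction of a list is largely set by which genes have a name.

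Of 21 other classical cadherins 2 have a name, and neither is in the filtered table. Cdh8, a cadherin of neurons, was tested in the table of all 15478 genes with a count, where 7.73% were called. Its levels were 0.379, 31.8 and 53.3 CPM in gmASTRs and 0, 1.19 and 9.71 CPM in wmASTRs (log2 fold change 3.54, SE 0.75, quasi-likelihood FDR 0.00284). The groups overlapped through gmASTR 5, which with 2 counts was under the floor and below wmASTR 1 (3.31 CPM), wmASTR 3 (9.71 CPM) and wmASTR 5 (2.02 CPM). Cdh9 was at 1.69 ± 0.81 CPM and 0.208 ± 0.510 CPM (FDR 0.210). None of the 19 catenins and other partners of the cadherin tail has a name here.

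Of 18 transcription factor genes linked to repression of Cdh1 or to EMT, beside Snai2, 4 have a name and 3 were higher in gmASTRs. Id1, which encodes an inhibitor of basic helix-loop-helix factors, reached 142 ± 35.2 CPM in gmASTRs against 78.8 ± 8.65 CPM in wmASTRs (log2 fold change 0.78, SE 0.14, quasi-likelihood FDR 0.00138), without overlap. Its relative Id3 was at 721 ± 140 and 498 ± 92.3 CPM (log2 fold change 0.47, SE 0.13, FDR 0.0250). Foxc2, a forkhead factor gene, was at 24.7 ± 10.9 and 11.2 ± 4.22 CPM (log2 fold change 1.07, SE 0.33, FDR 0.0426). Twist1, the basic helix-loop-helix EMT factor gene, was at 27.4 ± 9.23 and 15.5 ± 7.20 CPM (log2 fold change 0.75, SE 0.30, FDR 0.110) and was not called. Of the fits with a library left out, Twist1 passed only in that without wmASTR 5 (quasi-likelihood FDR 0.0446). The call of Id3 was lost when gmASTR 4, wmASTR 4, wmASTR 5 or wmASTR 6 was left out, and that of Foxc2 without gmASTR 2, 3, 4 or 6 or wmASTR 2, 4 or 5. The count of 3 fell to 1 without gmASTR 4 or without wmASTR 4.

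Among 32 genes of epithelial junctions and keratins 5 have a name, 3 were tested there and 2 had more transcript in gmASTRs. Cldn11 averaged 1842 ± 1433 CPM in gmASTRs against 27.5 ± 27.9 CPM in wmASTRs (log2 fold change 5.98, SE 0.75, quasi-likelihood FDR 6.40e-05), without overlap. Cldn11 kept its call whichever library was left out, while the count of 2 fell to 1 without gmASTR 2, 3 or 6 or wmASTR 1, 2, 3, 4 or 6. Krt8, an epithelial keratin gene, was at 36.0 ± 19.6 and 14.4 ± 12.9 CPM (FDR 0.205). Ocln, the gene of occludin, was at 6.16 ± 3.50 and 2.93 ± 1.97 CPM (FDR 0.422 in the table of all genes).

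Among 20 mesenchymal genes 6 have a name and all were tested, 3 being called on the wmASTR side and 1 on the gmASTR side. Tnc, the gene of the matrix protein tenascin-C, averaged 88.1 ± 43.2 CPM in gmASTRs against 498 ± 341 CPM in wmASTRs (log2 fold change -2.58, SE 0.37, quasi-likelihood FDR 0.000203), without overlap. Fn1, the gene of fibronectin, was at 3271 ± 713 and 4615 ± 870 CPM (log2 fold change -0.56, SE 0.15, FDR 0.0162). Col3a1, a fibrillar collagen gene, was on the other side with 1773 ± 425 and 1110 ± 206 CPM (log2 fold change 0.62, SE 0.15, FDR 0.0109). Vim, the gene of vimentin, did not pass the test with 2884 ± 236 and 2353 ± 96.5 CPM (log2 fold change 0.23, SE 0.09, FDR 0.0987), although its groups did not overlap and it passed with library totals in place of TMM (FDR 0.0213, and up to 0.241 under other settings). Cd44 did not pass either, with 36.0 ± 6.85 and 46.1 ± 3.78 CPM (FDR 0.0989).

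Of 24 genes of pathways that induce the transition, 10 have a name and 8 were tested there, with 3 called on the gmASTR side and 1 on the wmASTR side. Tgfb2, which encodes a transforming growth factor, had levels of 126, 198 and 309 CPM in gmASTRs and 399, 494 and 705 CPM in wmASTRs (log2 fold change -1.34, SE 0.21, quasi-likelihood FDR 0.000474). Its groups did not overlap. Smad3, which encodes a signal transducer of that pathway, lay on the other side with 38.6, 51.6 and 60.3 CPM in gmASTRs and 19.9, 26.3 and 30.9 CPM in wmASTRs (log2 fold change 0.87, SE 0.17, FDR 0.00207), also without overlap. Egfr, a growth factor receptor gene, was at 15.8 ± 11.4 and 3.75 ± 2.71 CPM (log2 fold change 1.99, SE 0.50, FDR 0.0127). Fgfr1, also a receptor gene, was at 36.0 ± 10.1 and 19.9 ± 5.87 CPM (log2 fold change 0.78, SE 0.23, FDR 0.0291), a call lost without gmASTR 3, 4 or 6 or wmASTR 1, 2, 4 or 6. Jag1, a Notch ligand gene, was at 124 ± 25.6 and 163 ± 29.3 CPM (FDR 0.0607), and Bmp4, a bone morphogenetic protein gene, at 39.8 ± 23.8 and 66.7 ± 12.8 CPM (FDR 0.0868). The list gave 6 calls without gmASTR 5, which added Jag1 and Bmp4.

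Among 14 genes that cleave, modify or degrade cadherins 2 have a name and neither passed the test. Cbll1, which encodes an E3 ligase of E-cadherin, averaged 72.2 ± 15.8 CPM in gmASTRs against 50.2 ± 5.94 CPM in wmASTRs (log2 fold change 0.46, SE 0.15, quasi-likelihood FDR 0.0531), and it passed without gmASTR 5. Btrc, the gene of an E3 ligase subunit, was at 21.9 ± 7.31 and 15.1 ± 2.68 CPM (FDR 0.253).

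**Figure D5:**
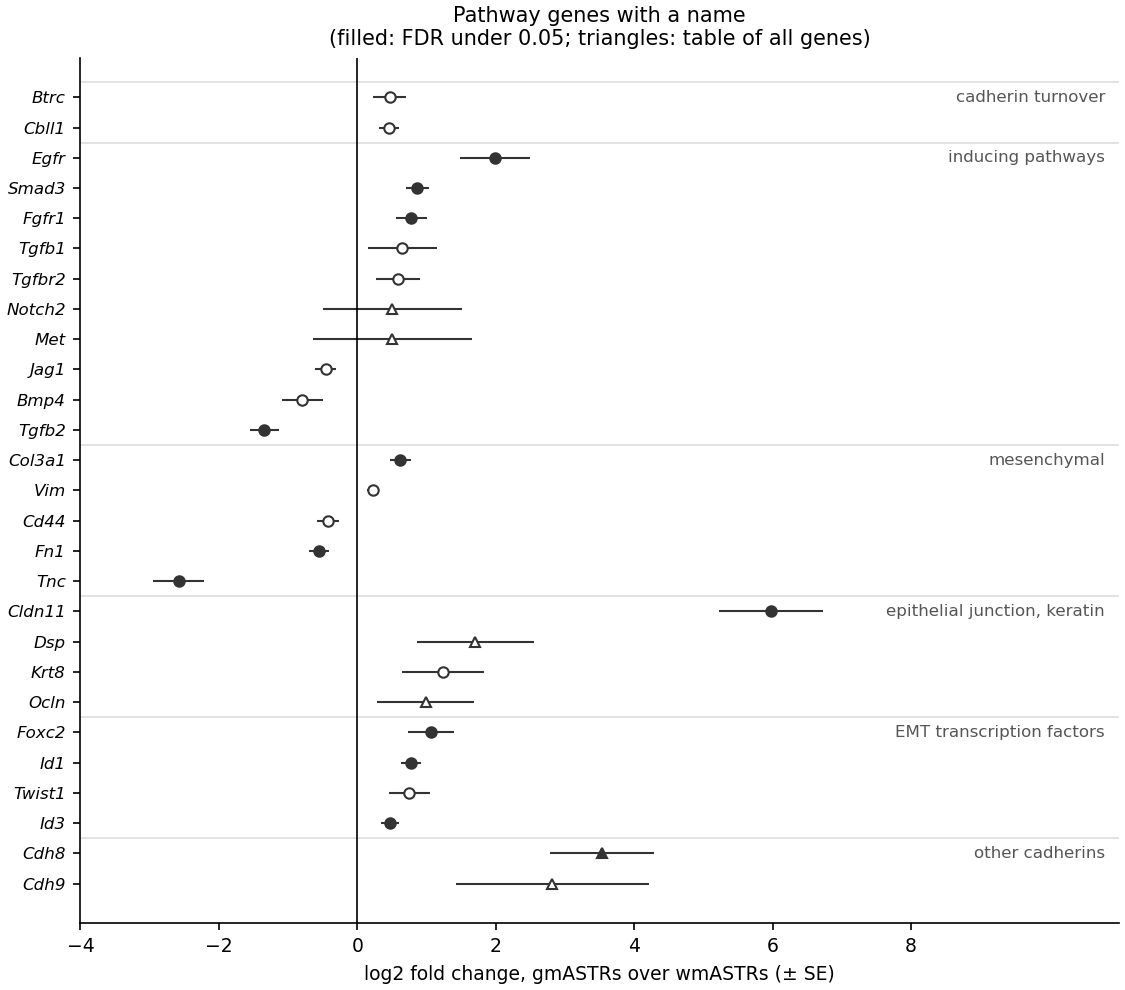
Fitted log2 fold change (± SE) of gmASTRs over wmASTRs for pathway genes that have a name, grouped by list, with filled symbols for FDR under 0.05 and triangles for genes tested in the table of all genes. Cldn11 (5.98) and Cdh8 (3.54) lie farthest to the gmASTR side and Tnc (-2.58) and Tgfb2 (-1.34) to the wmASTR side.

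Markers of cell types other than astrocytes differed between the groups beside these genes. Of 22 leptomeningeal markers 12 have a name and none of them was at 0 throughout a group. Their summed level was 9506 to 13701 CPM in gmASTRs and 4536 to 7086 CPM in wmASTRs, and of the 11 that were tested among the filtered genes 6 were called on the gmASTR side, Cldn11 and Tm4sf1 among them, and 1, Mgp, on the wmASTR side. In the table of all genes Ptgds was also called, on the wmASTR side (log2 fold change -3.22, SE 0.88, quasi-likelihood FDR 0.0213). On the gmASTR side 5.64% of all filtered genes and 28.8% of those with a name were called, and on the wmASTR side 6.69% and 6.97%. The direction of this list too is largely set by which genes have a name. Cldn11, Foxc2 and Col3a1 were also counted in the lists above. The leptomeningeal sum in gmASTR 5 was 12058 CPM, within the range of the other gmASTRs, but 8708 CPM of it were Igfbp2 and 2171 CPM Col3a1. By single markers gmASTR 5 was the lowest gmASTR culture for 6 of the 12, namely Cldn11, Tm4sf1, Foxc1, Foxc2, Igf2 and Mgp, and the highest for 1, Aldh1a2. Of the wmASTRs wmASTR 3 had the highest sum and was the highest for 6 of the 12. Ttr, the only named marker of choroid plexus epithelium, ranged from 0 to 3.98 CPM in gmASTRs and from 4.65 to 376 CPM in wmASTRs. Myh11, the only named marker of mural cells, ranged from 26.4 to 165 CPM in gmASTRs and from 361 to 729 CPM in wmASTRs, and 6 microglial markers summed to 5.99 to 60.8 CPM and 93.5 to 306 CPM. The culture with most Cdh2, wmASTR 4, had the highest microglial (306 CPM), endothelial (316 CPM) and mural (729 CPM) sums of all cultures, the lowest leptomeningeal sum (4536 CPM) and the lowest Gja1 (2212 CPM, against 3658 CPM or more in the others). Of its endothelial sum 293 CPM were Esam. Egfl7 (21.5 CPM) was also highest there, while Slco1a4 (1.06 CPM) and Tek (0.528 CPM) were the lowest of the wmASTRs. Without wmASTR 4, r of Cdh2 and Snai2 in wmASTRs was -0.79. The part of such cells in the levels of Cdh1, Cdh2 and Snai2 was not tested.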

How the data were processed

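RNA of 6 gmASTR and 6 wmASTR cultures was sequenced with a 3′ kit. The authors used HISAT (0.1.5) for alignment, SAMtools (1.2) for sorting and HTSeq (0.6.1p1) for counting per Ensembl gene, without strand, so reads of overlapping or antisense genes cannot be told apart. The paper states alignment to the rat genome, while the submitters' processing notes name the build GRCm38, a mouse build, for these rat samples. No coordinates are given here. The deposited values are raw read counts, as 1 table of 17941 genes and 1 of the 9394 genes that reach 2 counts in 11 or more libraries. Molecular identifiers are not mentioned.

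CPM of library totals, with a pseudocount of 1 on the log2 scale, and fold changes were computed here. Regions were compared with edgeR (4.0.16, TMM, quasi-likelihood test, prior count 0.125, Benjamini-Hochberg FDR under 0.05) in R (4.3.3). Alternatives used DESeq2 (1.42.0) and limma (3.58.1), and correlations scipy (1.17.1). The test was tested on 3 simulations of 9394 genes, where it recovered 85% to 91% of 200 genes changed by 2 on the log2 scale, with 10 to 12 false calls.

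The 3 genes and all lists were chosen with earlier results of these data known. Names stand in the additional file of the study beside 2010 identifiers, and 85 more were joined by their 12 CPM values. Columns of fold changes and p-values in that file were not used. Named from a list were called genes, at most 5, and at most 2 others by mean CPM, and for likeness the 5 nearest named genes, or 3 with group means subtracted. Some genes that these rules choose are not reported here. Opposite genes, Tm4sf1, Mgp, Ptgds, the other cell type markers, the markers of wmASTR 4 and values without gmASTR 5 or wmASTR 3 in the spread and ranges were singled out after values were seen. Alternatives were other scalings, tests, filters and pseudocounts, the replicate number as a block and each library left out. No 2 libraries of a group agreed within sampling noise (chi-square per degree of freedom at least 12.6).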

Additional observations from a re-analysis of the deposited data

Results flagged for a closer look

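Of 58 sets of 6 cultures examined for a culture far from the others of its group, 5 held one. For normally distributed values chance alone gives about 1 in 20 (5%). The Cdh1 level of wmASTR 3 was 114 CPM, and the nearest wmASTR culture was at 26.0 CPM. The log2 difference of Cdh1 and Cdh2 in gmASTR 5 was 3.24, against 7.90 or more in the other gmASTRs. The Cdh1 level of gmASTR 5 itself did not pass the criterion, its gap being 0.589 of the group's range against the critical 0.625. Levels were examined on the CPM scale and differences of genes on the log2 scale, and which culture stands out depends on that scale. In wmASTR 4, the culture with most Cdh2, Tgfb2 was at 705 CPM with the nearest wmASTR culture at 508 CPM, and Tnc was at 1168 CPM with the nearest at 518 CPM. Tgfb1 was at 15.5 CPM in gmASTR 4, against 9.60 CPM or less in the other gmASTRs.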

How the results depend on the processing

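The fold changes of Cdh1, Cdh2 and Snai2 kept their direction under each scaling, test and filter tried. With each library left out in turn they ran from 4.75 to 6.55 for Cdh1, the highest without wmASTR 3, from -4.71 to -3.59 for Cdh2 and from 1.82 to 2.25 for Snai2. Without gmASTR 5 and wmASTR 3 together, a setting chosen after seeing the data, they were 6.78, -4.90 and 2.37. Of all tested genes 530 were called on the gmASTR side and 628 on the wmASTR side, 377 to 697 and 506 to 872 with a library left out, and 691 and 533 with library totals in place of TMM, so the share on the gmASTR side went from 45.8% to 56.5%.

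With libraries left out, r in gmASTRs ran from -0.76 to 0.65 for Cdh1 and Cdh2, from -0.55 to 0.77 for Cdh1 and Snai2 and from -0.92 to -0.71 for Cdh2 and Snai2. In wmASTRs it ran from -0.97 to -0.46, from -0.23 to 0.92 and from -0.94 to -0.63. The sign turned without gmASTR 5 (0.65 and -0.55) and without wmASTR 3 (-0.23). Joined within groups, r was -0.66 for Cdh1 and Cdh2 (adjusted p = 0.0363) and -0.84 for Cdh2 and Snai2 (adjusted p = 0.00587).

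Called genes per list, with a library left out, ran from 1 to 3 for the transcription factors, from 1 to 2 for epithelial genes, from 3 to 6 for inducing pathways, and from 0 to 1 for cadherin turnover, and stayed at 4 for mesenchymal genes. Neither of the 2 other cadherins with a name is among the filtered genes, so neither was tested there. Whether cadherins without a name are among them is not known. The count was 1, Cdh8, with all genes or with edgeR's own filter, and the larger table was not refitted with libraries left out. The count for cadherin turnover was 1, Cbll1, with DESeq2, with library totals and without gmASTR 5 and wmASTR 3 together.

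Replicate numbers are not stated to mark animals, and same-numbered libraries did not deviate together (r from -0.033 to 0.011, none matching best with its own number). With the replicate block, 407 and 563 genes were called, the fold changes were 6.10 for Cdh1, -3.99 for Cdh2 and 2.01 for Snai2, and 1 epithelial gene was called. Foxc2 (FDR 0.0512) and Fgfr1 (0.0550) lost their calls under the block, and Jag1 (0.0492) and Bmp4 (0.0285) gained one.

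Depth limits Cdh2 in gmASTRs, with 0 to 44 counts, and Cdh1 in wmASTR 2 and wmASTR 4, with 5 and 7.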
